A study of Drosophila melanogaster with 3 samples.

Results

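The genes described here are 10 regulators of Drosophila neural stem cells and neurons, namely elav, pros, nerfin-1, grh, cas, dpn, ase, wor, esg and SoxN, chosen by symbol from the 13945 protein-coding genes of the annotation. All 10 symbols were found. The binding data came from 1 group of whole Drosophila melanogaster embryos, male and female mixed and 0 to 24 h old, from a transgenic line in which the homeodomain protein HHEX (CG7056) carries GFP at its C-terminus. HHEX-bound DNA was enriched with an antibody against GFP after sonication to 200 to 800 bp and sequenced (ChIP-seq) in 3 biological replicates. The series has no second genotype, stage or treatment, so the comparisons are between genes, between peaks and between replicates. The authors deposited 30000 regions for each replicate and 30000 for the pooled reads, each with a summit (its highest point) and a signal in their peak caller's units. They also deposited 5586 peaks that passed the irreproducible discovery rate (IDR) procedure, which asks whether a peak is ranked alike in replicates. Read depth is unknown, since the lists hold regions and not reads. The IDR peaks were the 5586 regions of highest pooled signal, with signals between 156 and 5323 and a median of 255. The set is thus a cut on pooled signal, and not each of its peaks is in every replicate list. A region of all 3 replicate lists covered the summit at 5020 of them.

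Neuroblasts are the neural stem cells of the fly embryo. They divide asymmetrically to renew themselves and to bud off ganglion mother cells, whose daughters become neurons or glia. In the embryo, dpn, ase, wor, esg and SoxN are expressed in neuroblasts or the neuroectoderm they come from, and cas and grh mark successive ages of a neuroblast. Prospero (pros), nerfin-1 and elav act in the cells that leave the stem cell state. Neuroblasts and neurons are a minority of the cells of a whole embryo, and a site bound in few cells cannot be told apart here from one bound weakly in many.

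Of the 10 genes, elav, pros and grh held all 11 IDR peaks found within gene bodies and 5000 bp on either side, and the other 7 genes held none. Stretches at elav and pros peaks that do not fall in a 3′ UTR are shown because the results turn on them, in dm6 coordinates, read from genome release 6, 5′ to 3′ along the gene. Capitals mark words that were searched for on either strand. These are the homeodomain class words TAATTA and CATTAA, and the word GAGAG, which on the other strand is written CTCTC. The first, 200 bp around the summit upstream of elav on the minus strand, holds none of the 10 words searched. The second lies in the first part of the elav transcription unit, in an intron, also on the minus strand, and holds GAGAG 3 times. The third is the intronic pros peak listed in replicate 2 alone. The fourth ends at the base before an internal pros start site, and the fifth lies between pros and Irbp. All the pros stretches are on the plus strand, and the last pair are shorter because annotated UTR bases were left out.
elav promoter, chrX:523405-523604: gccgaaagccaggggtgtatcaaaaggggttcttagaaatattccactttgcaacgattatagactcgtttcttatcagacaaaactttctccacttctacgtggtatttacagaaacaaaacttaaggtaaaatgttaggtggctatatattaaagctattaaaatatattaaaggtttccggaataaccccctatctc
elav intron, chrX:522539-522738: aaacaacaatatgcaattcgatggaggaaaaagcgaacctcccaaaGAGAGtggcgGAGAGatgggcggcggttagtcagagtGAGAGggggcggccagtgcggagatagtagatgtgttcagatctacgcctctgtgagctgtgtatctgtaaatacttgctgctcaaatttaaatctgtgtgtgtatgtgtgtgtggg
pros intron, chr3R:11338386-11338585: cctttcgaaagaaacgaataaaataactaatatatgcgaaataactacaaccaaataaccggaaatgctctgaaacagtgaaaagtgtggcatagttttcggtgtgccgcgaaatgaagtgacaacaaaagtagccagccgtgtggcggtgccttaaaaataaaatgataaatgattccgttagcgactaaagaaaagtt
pros internal start, chr3R:11372692-11372787: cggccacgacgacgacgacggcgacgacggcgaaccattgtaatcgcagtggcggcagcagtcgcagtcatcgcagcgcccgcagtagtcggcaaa
pros to Irbp, chr3R:11409882-11410046: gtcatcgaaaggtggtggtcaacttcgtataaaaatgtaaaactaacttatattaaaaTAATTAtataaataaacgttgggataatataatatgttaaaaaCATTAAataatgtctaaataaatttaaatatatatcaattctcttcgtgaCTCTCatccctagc

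The strongest peak at any of the 10 genes lay at the promoter of elav (FBgn0260400, X, 509235 to 523226, minus strand), which encodes an RNA-binding protein of neurons that is widely used as a marker of them. Its region (X, 523300 to 523663) had a pooled signal of 1662 and ranked 65 among the 5586 IDR peaks, with the summit 279 bp upstream of the transcription start site (TSS). Replicates 1, 2 and 3 listed it at 628, 493 and 525, with a mean of 549 ± 70.2 (SD, n = 3). The ranks were 47, 111 and 70, so every replicate placed this peak near the top of its list. Ordered by the highest signal within 1000 bp of a TSS, elav was the 64th of the 3233 genes with an IDR summit there, and 0.452% of other protein-coding genes had a region as high in that window.

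A second elav summit lay 866 bp from the first, in an intron 587 bp downstream of the TSS (X, 522526 to 522706), at the GAGAG-bearing stretch shown above. Its pooled signal was 477, and its signal was 175, 141 and 150 in replicates 1, 2 and 3 (155 ± 17.5, SD, n = 3). The order of the replicates was the same at both elav summits, with replicate 1 highest and replicate 2 lowest. The third elav peak (X, 515686 to 516109) fell in the annotated 3′ UTR, 4387 bp from the nearest elav TSS, with a pooled signal of 279. Replicates 1 and 3 had it at 93.7 and 103, while the list of replicate 2 had no region at this summit and none within 5308 bp. The 2 peaks near the elav promoter were therefore present in every replicate list and the 3′ UTR peak was not.

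The elav window was also dense in weaker regions. It held 16 regions of the pooled list, 3 of them IDR peaks and 13 under the threshold, or 6.67 per 10 kb, against a median of 2.34 per 10 kb over all protein-coding genes. As many per kb were found at 4.69% of other genes. Some of the 16 regions overlap one another, such as X, 521627 to 522050 and 521830 to 522253, so they are not all separate stretches. The weaker region at X, 515892 to 516315 overlaps the 3′ UTR IDR peak. Overlapping regions were counted singly here and in the median over all genes. Replicates 1 and 3 listed 18 and 15 regions in this window and replicate 2 listed 4. Of the 13 weaker regions, those with the highest signals lay in the intron at 1387 bp from the TSS (132), in the 3′ UTR at 7475 bp from a TSS (124) and 1318 bp upstream (111). At the far end of the elav 3′ UTR, the TSS of the neighbouring gene arg was nearer to the regions than that of elav.

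**Figure D1:**
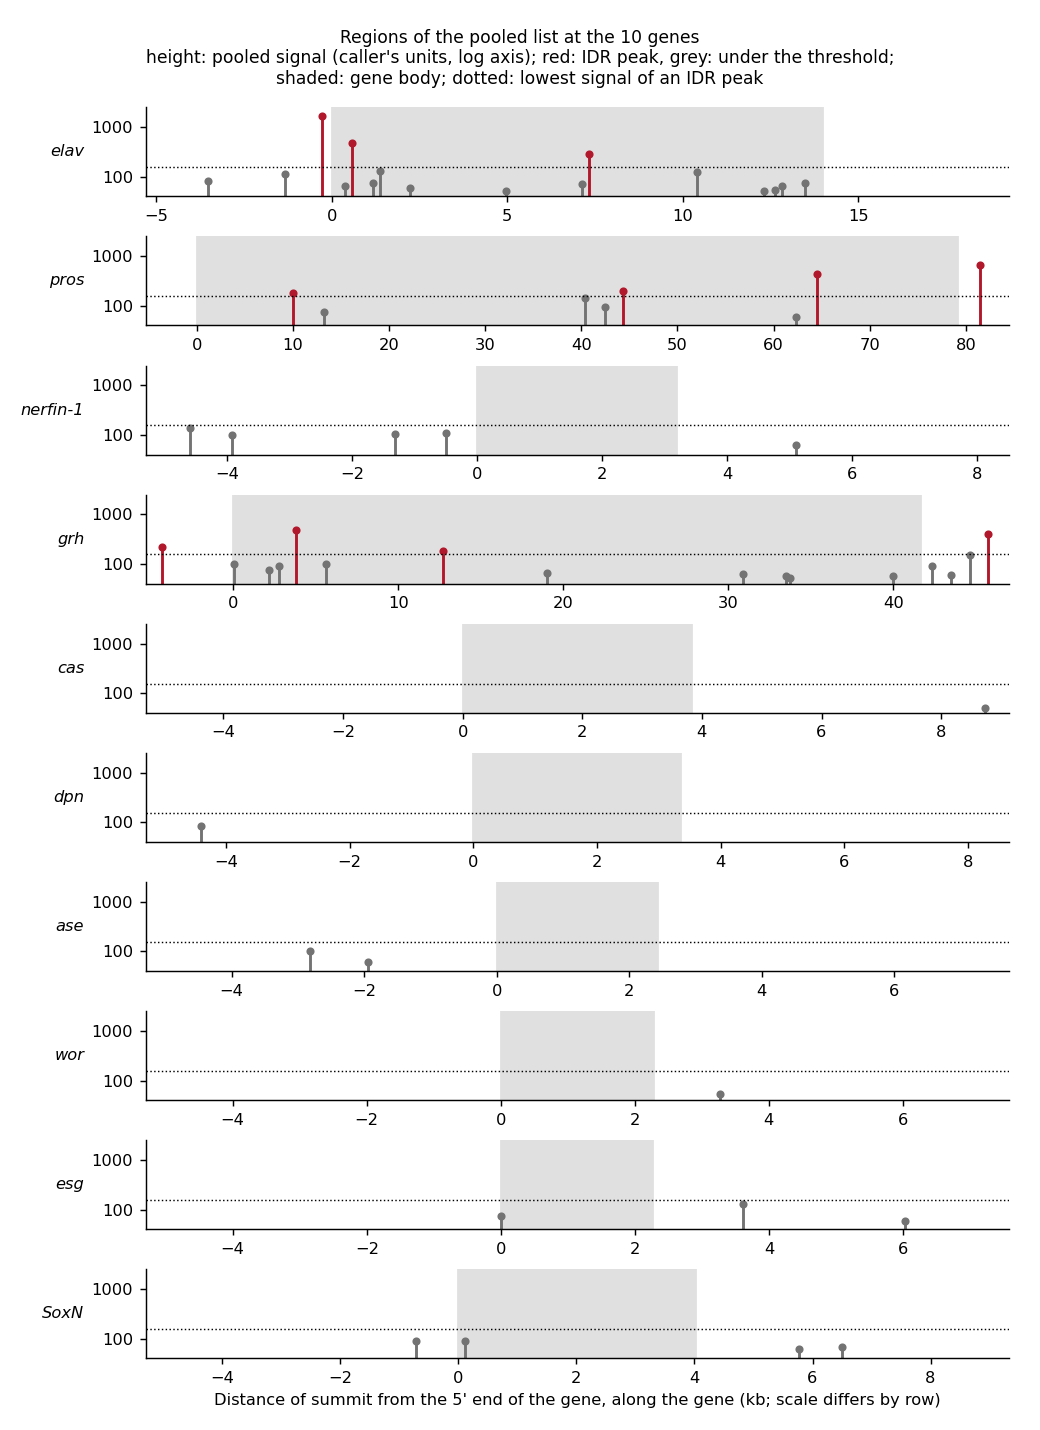
Each panel plots the regions of the pooled list at 1 gene, with distance along the gene from its 5′ end in kb on the x axis and pooled signal on a log y axis. Red stems are IDR peaks, grey stems are regions under the threshold, shading is the gene body and the dotted line is the lowest IDR signal, 156. Red stems occur in the panels of elav (3), pros (4) and grh (4), and the highest, 1662, is at the elav promoter.

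The gene pros (FBgn0004595, 3R, 11328480 to 11407627, plus strand) encodes a homeodomain protein that is passed to the ganglion mother cell at division and there turns off stem cell genes. It is the longest of the 10 genes, at 79.1 kb, and has 4 annotated TSSs. Its 4 IDR peaks were spread over the body and beyond its 3′ end. The only one near a TSS of pros had its summit 4 bp from the internal start site, in an annotated coding exon of another transcript (3R, 11372580 to 11373003), with a pooled signal of 200. Its signal was 108, 33.8 and 56.8 in replicates 1, 2 and 3 (66.1 ± 37.7, SD, n = 3), and it ranked 2222, 10241 and 5767. The ranks thus lay further apart at this peak than at the elav promoter, and only in replicate 1 was it among the 5586 highest regions.

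The other pros peaks were missing from the list of replicate 1. In the 3′ UTR (3R, 11392894 to 11393105), 20207 bp from the nearest pros TSS, the pooled signal was 435 and the signal was 178 and 132 in replicates 2 and 3. The nearest region of replicate 1 lay 2031 bp away. The nearest TSS to this 3′ UTR summit was that of mRpL40, at 14923 bp. Downstream of pros (3R, 11409907 to 11410113) the pooled signal was 650, and the signal was 219 and 203 in replicates 2 and 3, with no region of replicate 1 within 11767 bp. This summit lay 65 bp from the TSS of Irbp, a DNA repair gene, and so is closer to that gene than to pros. The intronic peak (3R, 11338274 to 11338697) had a pooled signal of 180 and was listed at 88.2 in replicate 2 alone, with gaps of 3205 bp to the nearest region of replicate 1 and 3002 bp to that of replicate 3. Its nearest TSS was that of lncRNA:CR46008, 2179 bp away.

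Over the whole IDR list, 88 peaks (1.58%) had no region of replicate 1 at the summit, and 3 of these lay in the pros window, across 71496 bp. The protein-coding genes with 3 or more such peaks in their window were pros and fru, and CG44085 had 2. Replicate 2 lacked 443 IDR peaks (7.93%) and replicate 3 lacked 59 (1.06%), so replicate 1 was not the list with the most missing peaks. The files give no reads. Whether replicate 1 had low signal, no usable reads or signal without a listed region at these 3 pros sites was not tested.

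**Figure D2:**
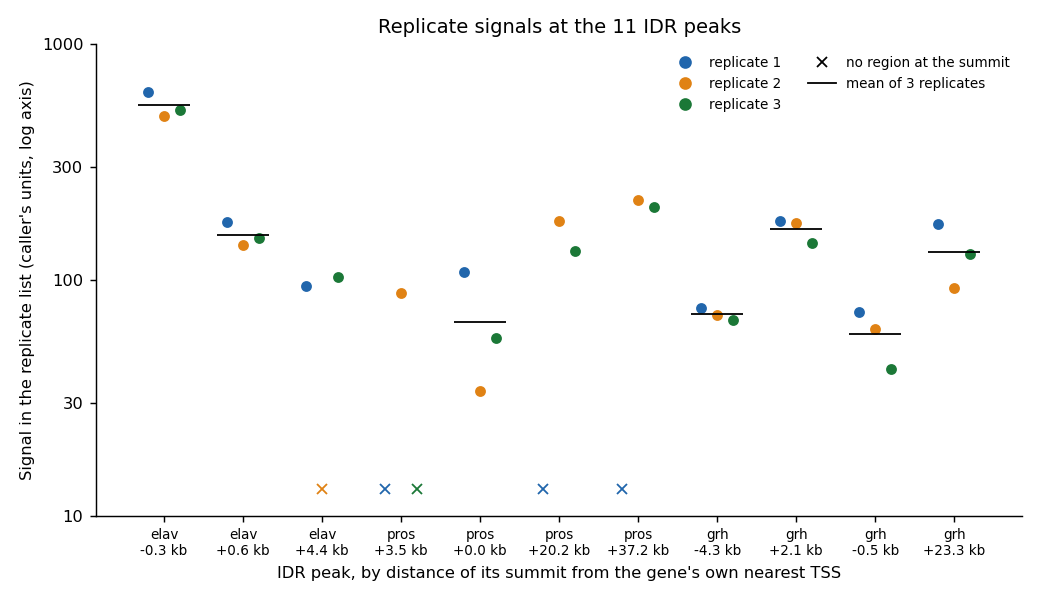
The signal of each of the 11 IDR peaks in the lists of replicates 1, 2 and 3 (points, log y axis, the caller's units), with the mean as a line where all 3 lists hold the peak and a cross where a list holds no region at the summit. Peaks stand on the x axis by gene and by distance of the summit from the gene's own nearest TSS. The elav promoter peak is the highest in every replicate, and 3 of the 4 pros peaks have a cross for replicate 1.

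The nerfin-1 gene (FBgn0028999, 3L, 909112 to 912319, plus strand) encodes a zinc finger protein needed for neurons to keep their identity. It had no IDR peak in its window, and its highest pooled region, 4592 bp upstream, had a signal of 135 and ranked 6845. The region nearest its TSS, 495 bp upstream, had a pooled signal of 111 and was listed at 36.0, 32.3 and 56.8 in replicates 1, 2 and 3 (41.7 ± 13.2, SD, n = 3). A region 1318 bp upstream had a pooled signal of 106 and was covered by regions listed at 63.0 in replicate 1 and 36.8 in replicate 3. In replicate 1 that region ranked 5465, so nerfin-1 entered the 5586 highest regions of 1 list. An IDR peak with a signal of 157, at rank 5506 close to the end of the list, lay 5122 bp from the gene, just outside the window and 3367 bp from the TSS of Glut1.

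In grh (FBgn0259211, 2R, 17801132 to 17842820, plus strand), which encodes a transcription factor of late neuroblasts and of the epidermis, the 4 IDR peaks were present in all 3 replicate lists. The highest lay in an intron 2075 bp from the nearest of its 5 TSSs (2R, 17804833 to 17805008), with a pooled signal of 480 and 177, 174 and 143 in replicates 1, 2 and 3 (165 ± 18.6, SD, n = 3). The only one within 1000 bp of a grh TSS lay 515 bp upstream of an internal start site (2R, 17813617 to 17814040), with a pooled signal of 183. It was listed at 73.1, 61.9 and 42.0 in replicates 1, 2 and 3 (59.0 ± 15.8, SD, n = 3), and ranked 9521 in replicate 3. The grh call at a TSS thus rests on the weakest of its 4 peaks.

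The outer grh peaks were closer to other genes. The one 4334 bp upstream (2R, 17796586 to 17797009) had a pooled signal of 218 and replicate signals of 75.9, 70.7 and 67.5 (71.4 ± 4.23, SD, n = 3), and was 3928 bp from the TSS of Dhit. It had the smallest spread for its mean of the grh peaks. The downstream one (2R, 17846652 to 17847075) had a pooled signal of 395 and replicate signals of 172, 91.9 and 129 (131 ± 40.3, SD, n = 3), and was 165 bp from the TSS of olf186-M. At the 5′ end of grh itself, 57 bp from the first TSS, a region under the threshold had a pooled signal of 101 and was listed at 37.4 and 50.2 in replicates 1 and 2 but not in replicate 3.

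The temporal factor gene cas (FBgn0004878, 3R, 5712975 to 5716805, minus strand), which encodes a zinc finger protein expressed in neuroblasts late in the embryonic sequence, had the lowest signal of the 10 genes. Its window held 1 pooled region, downstream, with a signal of 49.5 at rank 29464 of 30000, and no replicate list had a region at that summit. The nearest IDR peak, with a signal of 283, lay 7.36 kb from the gene and 1122 bp from the TSS of plx.

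Among the genes expressed in neuroblasts, dpn, ase and wor, like cas, had no pooled region within 1000 bp of their TSS. Deadpan (dpn, FBgn0010109, 2R, 8228971 to 8232330), a bHLH repressor that maintains self-renewal, had 1 pooled region in its window, 4410 bp upstream, with a signal of 85.5 and 43.0 and 28.7 in replicates 1 and 2. That region lay 531 bp from the TSS of pnut, a septin gene, and an IDR peak with a signal of 187 lay 5050 bp from dpn and 109 bp from the pnut TSS. Asense (ase, FBgn0000137, X, 460747 to 463176), a bHLH protein of the achaete-scute complex, had its highest region 2819 bp upstream, with a pooled signal of 103 and 29.6, 37.9 and 30.4 in replicates 1, 2 and 3 (32.7 ± 4.56, SD, n = 3). Worniu (wor, FBgn0001983, 2L, 15423297 to 15425580), a Snail family zinc finger protein, had a single region 3276 bp from its TSS, with a pooled signal of 53.4 and 22.9 in replicate 2 alone. In the pooled list, then, the regions at these 3 genes lay outside the promoter and under the IDR threshold. Single replicate lists did hold a region within 1000 bp of the TSS, replicate 2 at dpn and replicate 1 at wor.

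Both esg and SoxN had weak regions at their start sites. Escargot (esg, FBgn0287768, 2L, 15333866 to 15336138), another Snail family protein, had a region 4 bp from its TSS with a pooled signal of 75.3 and 35.5, 26.1 and 22.4 in replicates 1, 2 and 3 (28.0 ± 6.73, SD, n = 3). Its highest region was downstream, 3603 bp from the TSS, with a pooled signal of 128 and 31.9, 45.8 and 47.1 in the replicates (41.6 ± 8.39, SD, n = 3). SoxN (FBgn0029123, 2L, 8825645 to 8829670), an HMG box factor of the group B Sox family, had a region 106 bp from its TSS with a pooled signal of 89.6, listed at 62.1 in replicate 1 and 20.9 in replicate 3 but not in replicate 2. A second SoxN region 714 bp upstream had a pooled signal of 88.7 and was listed at 19.4, 26.5 and 40.1 in the replicates (28.7 ± 10.5, SD, n = 3). Replicate 1 was highest at the first SoxN region and lowest at the second, so the replicates did not order these regions alike.

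Together the 7 genes without an IDR peak held 17 pooled regions, of which 6 were covered in all 3 replicate lists. Against the lowest IDR signal, their highest region reached 86.7% at nerfin-1, 82.1% at esg, 65.9% at ase, 57.4% at SoxN, 54.9% at dpn, 34.3% at wor and 31.7% at cas. The last value just inside the threshold among the 10 genes was the intronic pros peak at 180, and the first just outside was a grh region at 149. Set among all protein-coding genes by the highest pooled signal in the window, elav stood near the top, with 1.38% of other genes as high, followed by pros (10.8%) and grh (16.7%). The rest stood in the lower part of the order, with 55.2% of other genes as high as nerfin-1, 56.9% for esg, 63.6% for ase, 67.8% for SoxN, 69.1% for dpn, 82.4% for wor and 84.0% for cas. The windows differ in length, at 89.1 kb for pros, 51.7 kb for grh, 24.0 kb for elav and 12.3 to 14.0 kb for the 7 others. The place of pros comes from the peak 65 bp from the Irbp TSS, which the list of replicate 1 lacks. Within 1000 bp of a TSS, the shares as high were 0.452% for elav, 18.3% for pros and 19.9% for grh. The neighbours nerfin-1 and esg in this order (40.4 ± 15.8 and 41.6 ± 8.39 in the replicate lists, SD, n = 3 each) did not differ beyond their spread, which includes differences in scale. Replicate 1 had nerfin-1 higher (58.6 against 31.9). Replicates 2 and 3 had esg higher (45.8 against 31.7 and 47.1 against 30.7). This nerfin-1 region lay nearer to the TSS of mat, 1622 bp away.

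**Figure D3:**
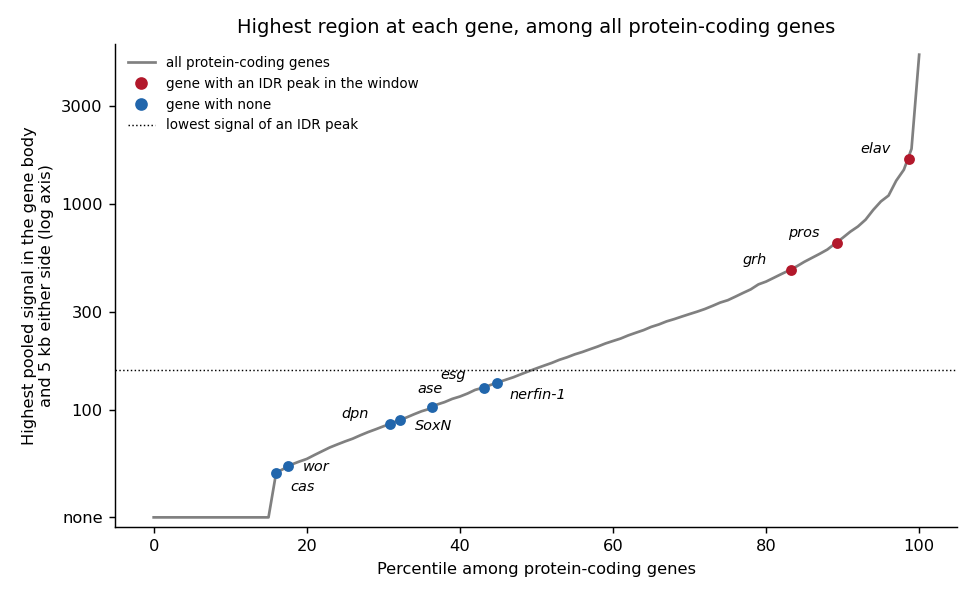
The highest pooled signal in the gene body and 5 kb on either side (log y axis) against the percentile among all protein-coding genes (x axis). The grey line is all protein-coding genes, red points are the 3 genes with an IDR peak, blue points the 7 genes without one, and the dotted line the lowest IDR signal. The points of elav, pros and grh lie above that line and the 7 others, between 49.5 and 135, lie below it. Genes with no pooled region in the window stand at the level marked none.

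Genes count here as bound if any of their TSSs has an IDR summit no more than 1000 bp away. By this rule 3 of the 10 genes were bound, against 23.2% of all protein-coding genes, a share near the background. The median highest signal at a TSS was 200 in the 3 bound genes and 296 in the 3230 other bound genes. The middle value is that of pros, since elav had 1662 and grh 183, which placed pros 2556th and grh 2777th among the 3233 bound genes. Within 500 bp of a TSS, elav and pros were bound and grh was not, against 19.7% of all genes, and within 5000 bp the 3 genes stayed bound, against 44.4%. Of the 6 genes with any pooled region within 1000 bp of a TSS, 3 were bound, against 43.5% of all genes with such a region.

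The 3 genes with peaks were also the 3 with several start sites. All of elav, pros and grh had over 1 TSS and were bound, against 40.4% of all genes with over 1 TSS, whereas none of the 7 genes with 1 TSS was bound, against 17.0% of all such genes. Gene bodies held an IDR summit in 3 of the 10 genes, against 14.4% of all protein-coding genes. The bodies of elav, pros and grh are over 10 kb, and 51.1% of all genes of that length held a body summit. Per length, pros had 0.379 IDR summits per 10 kb of body and grh had 0.480, against 0.393 per 10 kb over all genes above 10 kb, while elav, with 2 summits in 14.0 kb, had 1.43. The number of peaks at pros and grh was thus near that of other long genes.

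With 5000 bp added on either side, the count remained 3 of the 10 genes, against 50.5% of all protein-coding genes. The bodies of the other 7 genes are at most 5000 bp long, and 0 of them had an IDR summit in this window, against 45.4% of all genes of that length. No test was made of these differences, because the genes were not chosen blind to the peaks. Under the same TSS rule, the 5586 highest regions of replicate 1 gave 3 bound genes (elav, pros and grh, against 23.7% of all genes), those of replicate 2 gave elav and grh (against 21.7%), and those of replicate 3 gave elav alone (against 23.4%). Only elav was therefore bound in each replicate taken by itself.

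**Figure D4:**
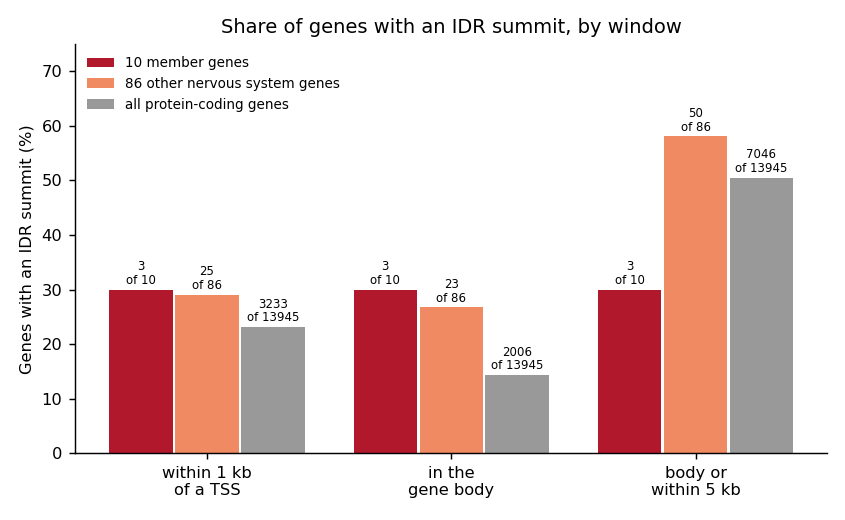
The share of genes with an IDR summit (y axis, percent, from 0) in 3 windows (x axis), for the 10 genes described here, the 86 other nervous system genes and all protein-coding genes, with the counts above the bars. The 10 genes stay at 3 of 10 in each window, while all protein-coding genes go up to 7046 of 13945 in the widest.

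Of the 11 IDR peaks, 6 had a TSS of the member gene as the nearest one and 5 had that of another gene. Summits within 500 bp of any TSS numbered 4 of 11, against 45.4% of all IDR peaks. By the annotation, 4 lay in introns, 2 in a 3′ UTR, 1 in a coding exon, 2 upstream and 2 downstream of the gene, whereas 3′ UTRs held 1.88% of all IDR summits and coding exons 0.788%. The 11 peaks were in all 3 replicate lists in 7 cases, against 89.9% of all IDR peaks. The 4 exceptions are the elav 3′ UTR peak and the 3 pros peaks missing from the list of replicate 1.

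Each summit was searched, in the 200 bp around it and on either strand, for 10 words. GAGAG, which the GAGA factor binds, was present at 6 of the 11 summits, against 24.5% of all IDR summits and 23.9% of regions under the threshold. Those summits were the elav intron, the pros 3′ UTR and downstream peaks, and the 3 grh peaks upstream of and within the gene. Among words of the homeodomain class, TAATTA was at 2 summits (pros downstream and the strongest grh intron peak), against 16.6% of all IDR summits and 11.7% under the threshold. CATTAA was at 1 summit, the pros downstream one, against 16.3% and 14.3%. CAATTA was at 0 of 11, against 18.9% and 17.1%, and TTATTG at 0, against 21.2% and 17.6%. The remaining words were at 0 of 11 summits, namely CAGCTG (9.70% of all IDR summits, 9.41% under the threshold), CAGGTG (5.48%, 7.27%), CAGGTAG (1.02%, 1.01%), TATCGATA (2.35%, 0.980%) and GGTCACAC (1.88%, 0.886%). The strongest peak, at the elav promoter, held none of the 10 words. GC content over the same 200 bp had a median of 35.5% at the 11 summits, between 26.0% at the internal grh start and 60.5% at the internal pros start, against 36.0% over all IDR summits. A match describes letters in a window and is not a bound site.

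Among 86 other genes of nervous system development, 25 (29.1%) were bound at a TSS, 23 (26.7%) had a body peak and 50 (58.1%) had a peak in the body or within 5000 bp, against 23.2%, 14.4% and 50.5% of all protein-coding genes. These 86 genes are longer than most (median of 7.12 kb, against 2.17 kb) and 45.3% have over 1 TSS, against 26.5% of all. Relatives of the 10 genes differed in their counts. Of the fellow bHLH genes of the proneural list, 3 of 10 were bound, with signals of 280 at emc, 223 at da and 174 at Oli. The list of replicate 2 had no region at the da summit. Of the dpn-related Enhancer of split list, 3 of 8 were bound (E(spl)m3-HLH 611, E(spl)m7-HLH 416, E(spl)mdelta-HLH 248) and 7 of 8 had a peak within 5000 bp, though the genes of the E(spl) complex, which Hey is not part of, lie close together and can share a peak. The nearest TSS was that of lncRNA:CR43644 at the E(spl)m3-HLH peak and that of CG43116 at the E(spl)mdelta-HLH peak. The zinc finger relatives sna, scrt and nerfin-2 were like wor, esg and nerfin-1 in having no IDR peak, 0 of 3 in every window.

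In the Sox list, 3 of 7 genes were bound and all 7 had a peak within 5000 bp, whereas SoxN had none. Of all protein-coding genes, 23.2% were bound and 50.5% had a peak within 5000 bp. The Sox list has a median length of 11.0 kb and 4 genes with over 1 TSS, whereas SoxN is 4.03 kb long with 1 TSS. The peak at Sox14 had a pooled signal of 1855 (622 ± 62.3 in the replicates, SD, n = 3), above that of elav, and Sox102F had 559 and Sox100B 177. Genes of asymmetric division, the process that hands pros protein to one daughter cell, were bound in 8 of 15 cases, led by brat at 1129 (375 ± 11.1), numb at 1002 (327 ± 16.5), par-6 at 490 and dlg1 at 358. The par-6 peak was nearer to the TSS of CG8188 and had no region of replicate 2 at its summit. In this list 8 genes have over 1 TSS, and 40.4% of all genes with over 1 TSS were bound. The elav paralogue fne had a promoter peak of 203, with Fas2 at 202 and Syx1A at 198, in a neuronal differentiation list with 3 of 11 bound. No region of replicate 2 covered the Syx1A summit. Temporal identity genes were bound in 2 of 11 cases, Imp at 243 and hb at 206, and cas was not. Glial genes were bound in 3 of 7 cases, with moody at 1238 (424 ± 69.8), pnt at 275 and loco at 264, and columnar and neuronal identity genes in 0 of 14. The promoter signal of elav, 1662, was thus above that of every gene named from these lists except Sox14.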

How the data were processed

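HHEX-GFP ChIP-seq of whole embryos was deposited as narrowPeak lists on dm6 for 3 biological replicates of 1 group, for their pooled reads and for the thresholded IDR set. The signal of a region is the value the authors deposited from their peak caller. It was used to rank and describe regions within a list and was not rescaled between lists, so an SD over the replicate lists includes differences in scale. Which aligner, caller and IDR cut-off were used is not given in the sources used here, and the control alignment was not analysed here. Regions enriched by any GFP antibody precipitation therefore cannot be told apart from HHEX sites. The labels call the replicates biological but do not say how the collections were made.

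Genes and TSSs came from Ensembl release 115 (BDGP 6.54), without transposable elements, and sequence from genome release 6. Summits were assigned to genes with Python 3.11.15 and NumPy 2.4.6. Bound genes had an IDR summit at most 1000 bp from a TSS, and the wider window was the gene body with 5000 bp either side. A replicate held a peak when one of its regions covered the summit. The assignment was tested on simulated summits. The genes, word list and other gene lists were chosen with earlier results of these data known, so no set test or p-value is given. All 10 genes are named. Other genes are named as the nearest TSS to a peak in a member window or, in each list, as up to 4 bound genes of highest signal. Genes named for the missing peaks of replicate 1, and neighbours of genes without a peak, were chosen after their values were seen. The dm3 lists were not used.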

Additional observations from a re-analysis of the deposited data

How the results depend on the processing

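Across 18 alternative settings, 32 values stayed close to those reported, with a count taken as close within 1.5 times, and 13 moved. A count of 2 in place of 3 is within that range although a gene is lost. The count of genes bound at a TSS was 1 (elav) with IDR peaks above their median signal, with 1 TSS a gene, or with the highest regions of replicate 3 alone, and was 1 to 2 when each replicate was left out. The gene pros was lost in each case of leaving a replicate out, and without replicate 2 or 3 it also had no body peak, which left 2 genes. The median signal at a TSS was 1662 with IDR peaks above their median or 1 TSS a gene. It was 923 to 1662 without a replicate, in each case because fewer genes enter it. Peaks were not called again without a replicate, so these are still signals of all 3 replicates pooled. The genes kept were those whose summit lay in one of the 5586 highest regions of both other lists. Genes with a peak within 5000 bp numbered 5 when any overlap of 1 bp counted, since the peaks beside dpn and nerfin-1 reach the window. No share of all protein-coding genes is given under the median, 1 TSS, left-out replicate or overlap settings. These shifts therefore cannot be set against a background. Among genes with 1 TSS the bound count was 0, and among genes of at most 5000 bp the count within 5000 bp was 0; these 2 backgrounds were chosen after seeing the data. No paired analysis was possible because there is 1 group. Lists hold no region below their lowest signal, so a weaker site could not be detected.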

Other observations

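The Snail family genes esg and wor lie in the same stretch of 2L without an IDR summit, between 15264666 and 15499043. The stretch spans 234 kb and is the 28th longest of 5580 between neighbouring IDR summits, whose median is 7.83 kb. A length above that median was fixed in advance, since esg and wor have no IDR summit in their windows of 12.3 kb. The 234 kb stretch holds 14 protein-coding genes, among them esg, sna and wor. It also holds 33 pooled regions (1.41 per 10 kb), the highest with a signal of 147. The nearest IDR peaks were 69.2 kb from esg, at yuri, and 73.5 kb from wor, at lace, and 4.28% and 3.93% of other genes were as far from one.

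The stretches around the other genes without a peak were shorter. It was 156 kb at ase, 108 kb at SoxN, 63.6 kb at dpn, 31.0 kb at cas and 21.6 kb at nerfin-1. At ase, the nearest IDR peak lay 30.8 kb away with a signal of 1519 at rank 90, near CG17896, and 12.7% of other genes were as far from a peak. For SoxN the distance was 16.4 kb. The distances at dpn, nerfin-1 and cas were as long or longer at 49.3%, 48.9% and 41.7% of other genes.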
